A study of Mus musculus with 4 samples.

Results

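The genes described here are 10 genes of the mitochondrial and endoplasmic reticulum (ER) death machinery, read in the cerebellum of mice that lack Derlin-2 in the central nervous system. They were taken as named genes, and every non-control probe whose RefSeq accession belongs to such a gene was used: 21 of the 56605 probes on the array, for 10 of its 22911 named genes. By role they are the pore formers Bax and Bak1, the BH3-only genes Bbc3, Pmaip1 and Bcl2l11, the survival genes Bcl2, Bcl2l1 and Mcl1, the caspase Casp12 and the death receptor Tnfrsf10b. The mice were C57BL/6 at postnatal day 28. The 2 control mice were Derlin-2flox/flox, and the 2 knockout (KO) mice came from crossing Derl2flox/flox mice with mice whose Cre recombinase is driven by the nestin promoter, per the labels. That promoter is active in neural precursors, so blood, vessel and microglial cells of the KO cerebellum are expected to keep the gene. Whether the controls carried Cre, and the sex of the animals, is not given in the sources used here. Each mouse gave 1 single-colour array.

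Derlin-2 sits in the ER membrane and helps to pass misfolded proteins out for degradation. When misfolded protein builds up, the sensors PERK, IRE1 and ATF6 raise chaperones such as BiP (Hspa5), and, if the load persists, PERK and ATF4 raise the transcription factor CHOP (Ddit3). CHOP is known to act on BCL2 family genes. BH3-only proteins block the survival proteins or switch on BAX and BAK, which then open the outer mitochondrial membrane and release cytochrome c. In the brain the same machinery removes surplus neurons during development and takes part in death after injury.

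All 4 arrays were read from 59305 non-control spots each, of which 66.4% to 69.4% were well above background and 0 were saturated, and having so few arrays limits the precision throughout. Values are log2 processed signal minus the array's 75th percentile, so they compare a probe between arrays but not 1 gene with another. Nothing in the labels says how the animals of a group were related, so p-values measure the spread between these arrays. Derl2 was at 2.13 and 2.20 in control and 0.81 and 0.70 in KO, in keeping with the labels, on its brighter probe. The lists for Purkinje and granule cells, the neurons that define this tissue, had a tested probe for 8 of 8 genes each. Control replicate 2 stood apart in choroid plexus genes: their summed linear level was 235 there against 28.8 in the other control and 19.8 and 20.9 in KO.

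Casp12 and Bbc3 had the largest differences among the 10 genes, and no member passed the test. Of the 19 member probes that were well above background and tested, 0 had a limma adjusted p under 0.05, against 0% of all 37516 probes tested. The deleted gene did not pass either: the Derl2 probes differed by -1.41 and -1.73, each with a limma adjusted p of 0.273. Failing this threshold thus does not show that a gene is unchanged. At an unadjusted p under 0.05 there was 1 member probe, of Casp12, against 14% of all probes (8.84% with KO higher and 5.2% with KO lower). Both KO arrays lay above both control arrays on 4 member probes (22.5% of all probes did) and below them on 3 (26.9% of all probes did), and the groups overlapped on 12. Separate groups in either direction were found on 49.3% of all probes. These shares are no larger than the background. The absolute log2 difference was under 0.25 on 16 of the 19 probes. The 95% interval of the difference held 0 on 18 of them.

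**Figure D1:**
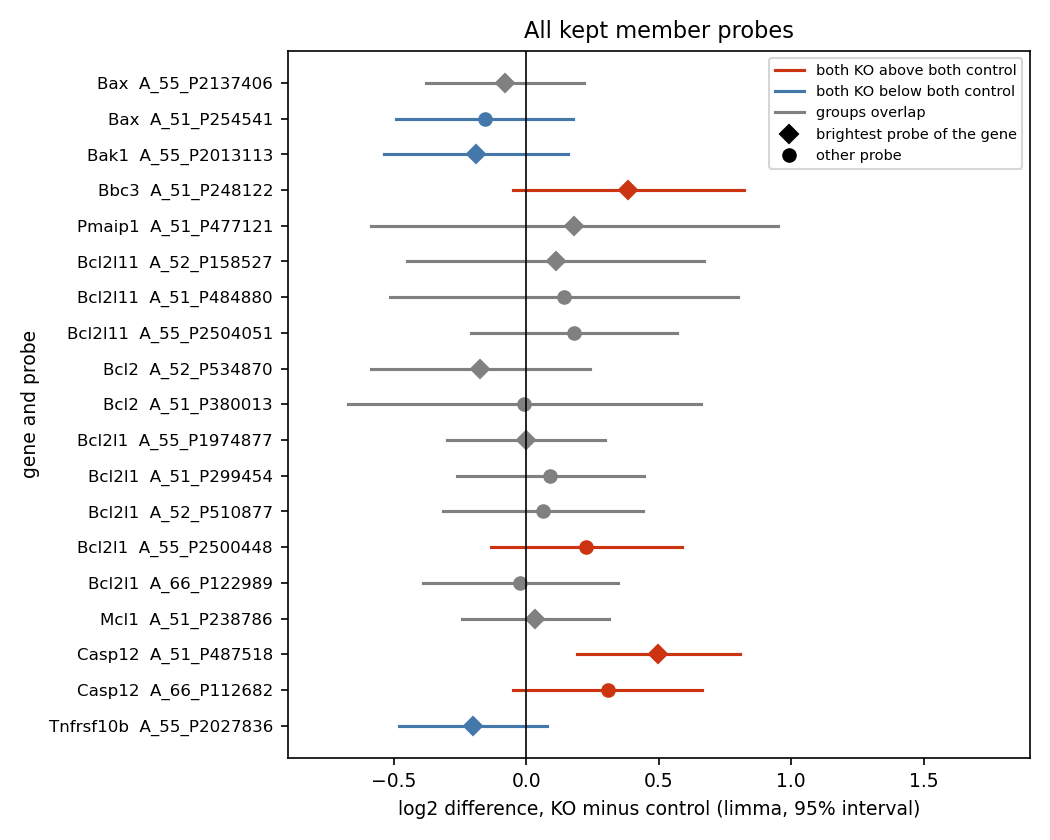
Log2 difference between KO and control (x axis) for each of the 19 tested member probes (y axis), as limma estimates with 95% intervals. Diamonds mark the brightest probe of a gene, and colour tells whether the 2 KO arrays lay above, below or among the 2 control arrays. The interval of the brighter Casp12 probe alone lies wholly to the right of 0.

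Taking the brightest probe of each gene, 5 members had a difference above 0 and 5 below it, where 63.9% of all genes lay. The median over the 10 genes was 0.017, beside -0.064 over all 16524 genes tested. Bbc3 and Casp12 had separate groups with KO higher (2 of 10 genes, against 13.8% of all genes). Bak1 and Tnfrsf10b had separate groups with KO lower (2 of 10, against 32.1%), which makes 4 of 10 genes with separate groups against 45.9% of all. With the arrays scaled to spike-in probes, 52.96% of the genes with separate groups were higher in KO in place of 30.0%, and with quantile normalization 42.4% were. Under these 2 scalings Bak1 overlapped and Mcl1 lay higher in KO, so the call on these genes rests on the scaling.

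**Figure D2:**
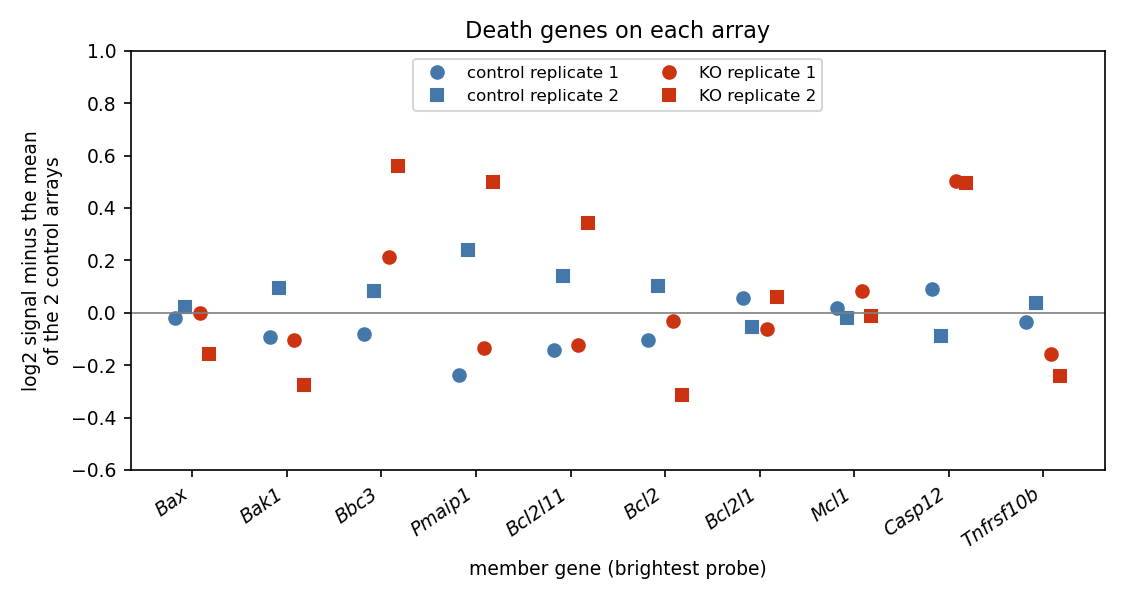
Log2 signal on each array minus the mean of the 2 control arrays (y axis) for the brightest probe of the 10 genes (x axis). Blue points are control and red points KO, with circles for replicate 1 and squares for replicate 2. Casp12 stands about 0.50 above the control mean on both KO arrays, while Bbc3, Pmaip1 and Bcl2l11 are highest on KO replicate 2.

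Casp12 encodes a caspase that in rodents lies on the ER membrane and has been proposed as a link from ER stress to cell death. Its brighter probe read -1.51 and -1.69 in control and -1.10 on both KO arrays. Both KO arrays lay above both controls, and the KO animals were nearly equal. The means were -1.60 ± 0.13 (SD, n = 2) and -1.10 ± 0.0048 (SD, n = 2), a log2 difference of 0.50 (SE 0.11; 95% interval 0.19 to 0.81; limma p 0.00986, adjusted p 0.273). This is 141% of the control signal. An unadjusted p as small was found on 3.59% of all probes tested, and a difference as large in size on about 1 probe in 10. The dimmer probe read -4.45 and -4.21 in control and -4.07 and -3.97 in KO. Its groups were separate as well, with a difference of 0.31 (SE 0.13; limma adjusted p 0.394). That difference was 0.11 with normexp background correction and 0.18 without control replicate 1. Without control replicate 2, the array rich in choroid plexus RNA, the brighter probe differed by 0.41.

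Cell types that could carry Casp12 were read beside it. The 10 microglial markers had summed levels of 85.7 and 90.5 in control and 81.3 and 82.6 in KO, and 0 of the 10 had a difference above 0. That sum is carried mostly by Itgam, the brightest marker, which differed by -0.057. The median difference of the 10 was -0.23, and 6 of them had separate groups with KO lower, against 32.1% of all genes. The 8 endothelial and pericyte markers had summed levels of 40.6 and 38.7 in control and 38.2 and 41.5 in KO, so the groups overlapped. The 6 tested genes of T cells and neutrophils summed to 0.901 and 1.37 in control and 1.79 and 3.52 in KO, with 3 genes above 0 and 3 below. The leukocyte genes Cd3e, Ptprc and Lck differed by -0.16, -0.18 and -0.19. The neutrophil gene S100a8 differed by 2.09, and S100a9 read -2.60 and -0.78 in control and -0.046 and 1.30 in KO. Of the remaining neutrophil genes, Ly6g had no probe that passed the filter. Ngp was well above background on both KO arrays and on 0 control arrays. It entered the test only through the KO arrays, so its place among the 3 genes above 0 was favoured by the filter. Ngp was at least 1.18-fold higher in KO when each control array is set at its detection floor or at the probe's own signal, whichever was higher. The part of these cell types in the Casp12 value was not tested. In whole tissue, a change in the number of cells of a type and a change in RNA per cell cannot be told apart.

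Bbc3 encodes PUMA, a BH3-only protein that p53 induces and that has also been linked to ER stress. Its probe read 1.96 and 2.12 in control and 2.25 and 2.60 in KO. Both KO arrays lay above both controls, KO replicate 2 by more. The means were 2.04 ± 0.12 (SD, n = 2) and 2.43 ± 0.24 (SD, n = 2), a difference of 0.39 (SE 0.16; 95% interval -0.049 to 0.82; limma adjusted p 0.388), or 131% of control. The difference was 0.21 without KO replicate 2 and 0.56 without KO replicate 1, so its size rests on that animal. A difference this large in size was found on 16.7% of all probes.

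The promoters of Casp12 and Bbc3, the genes with the largest differences, are shown beside that of Hspa5, whose ER stress response element is well known. RefSeq start sites (GRCm38.p6) gave 13 windows for 8 of the 10 genes, each from 250 bases before to 50 after the start. The motifs searched on both strands were the ER stress response element ERSE (CCAAT and CCACG with 9 free bases between them), its CCACG part alone, the ATF4 and CHOP element CARE (TGATGNAA), the XBP1 element UPRE (TGACGTGG) and the cyclic AMP element CRE (TGACGTCA). The CCACG part lies within every ERSE. Printed are the 250 bases upstream of the start, on the plus strand, with matches in capitals: the whole ERSE in Hspa5 and the CCACG part (CGTGG on the other strand) in Bbc3. They lie at chr2:34771840-34772089 for Hspa5, chr9:5345226-5345475 for Casp12 and chr7:16309333-16309582 for 1 of the 3 Bbc3 start sites.
Hspa5: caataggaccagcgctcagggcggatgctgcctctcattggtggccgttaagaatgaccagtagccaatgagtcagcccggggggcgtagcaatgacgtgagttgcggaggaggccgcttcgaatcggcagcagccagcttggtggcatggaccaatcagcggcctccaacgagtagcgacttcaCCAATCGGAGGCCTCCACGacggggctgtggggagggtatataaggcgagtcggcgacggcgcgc
Casp12: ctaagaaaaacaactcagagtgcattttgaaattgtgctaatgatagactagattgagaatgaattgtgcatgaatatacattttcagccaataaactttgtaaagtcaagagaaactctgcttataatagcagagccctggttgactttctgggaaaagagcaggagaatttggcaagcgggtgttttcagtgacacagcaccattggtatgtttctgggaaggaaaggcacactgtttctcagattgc
Bbc3: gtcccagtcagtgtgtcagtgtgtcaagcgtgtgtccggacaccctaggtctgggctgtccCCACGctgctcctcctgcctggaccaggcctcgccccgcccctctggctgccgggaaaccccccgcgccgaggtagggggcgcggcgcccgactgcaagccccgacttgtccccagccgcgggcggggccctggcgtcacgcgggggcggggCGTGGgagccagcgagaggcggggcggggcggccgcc

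The Hspa5 window held the whole ERSE, starting 65 bases before the start site, as did 0.119% of all 32851 windows. The Casp12 window held none of the 5 motifs. All 3 Bbc3 windows held the CCACG part, which 32.8% of all windows hold. Over the 13 member windows, 6 held that part and 0 held the whole ERSE, CARE (3.97% of all windows), UPRE (0.676%) or CRE (1.79%). A missing match says only that these letters are not in the window.

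Pmaip1 encodes NOXA, a BH3-only protein that binds MCL1. It read -3.20 and -2.73 in control and -3.10 and -2.47 in KO. The groups overlapped, with a difference of 0.18 (95% interval -0.59 to 0.95; limma adjusted p 0.790). The animals of each group lay further apart than the groups did, and the difference was -0.14 without KO replicate 2.

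Bcl2l11 encodes BIM, a BH3-only protein that has been tied to the death of neurons deprived of survival signals. It had 4 probes, and 3 were tested. The brightest read 1.003 and 1.29 in control and 1.02 and 1.49 in KO, a difference of 0.11 (95% interval -0.45 to 0.67; limma adjusted p 0.826). The groups overlapped on this probe and on the others, which differed by 0.14 and 0.18. The probe that was left out was well above background on 0 of the 4 arrays.

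KO replicate 2 held the highest value of the 4 arrays on all 5 tested probes of Bbc3, Pmaip1 and Bcl2l11, while 22.7% of all probes were highest on that array. The 3 Bcl2l11 probes share a gene and are not independent. Of the other BH3-only genes tested, Hrk and Bmf were highest on the same array, while Bad and Bid were highest on control replicate 1. The order was also found outside the BH3-only genes: 5 of 7 caspase inhibitor genes were highest on KO replicate 2, against 20.5% of all genes. Among these inhibitors are Naip copies, whose probes can share signal. This order was noticed after the values were seen, and 1 animal cannot be tested.

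The pore formers did not lie higher in KO. Bax read 2.45 and 2.49 in control and 2.47 and 2.31 in KO on its brightest probe, and the groups overlapped. The difference was -0.079 (95% interval -0.38 to 0.22; limma adjusted p 0.762). A second, dimmer Bax probe gave -0.16, with both KO arrays below both controls. Bak1 read 1.60 and 1.79 in control and 1.59 and 1.42 in KO. KO replicate 1 lay just under the lower control, and the difference was -0.19 (95% interval -0.54 to 0.16; limma adjusted p 0.540). The upper bounds of these intervals correspond to 116% of the control signal for Bax and 111% for Bak1.

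The 3 survival genes overlapped between groups on their brightest probes. Mcl1, which encodes a short-lived survival protein, read 4.08 and 4.04 in control and 4.14 and 4.04 in KO. The groups overlapped, and the difference of 0.035 had a 95% interval of -0.24 to 0.31 (limma adjusted p 0.893), or 84.6% to 124% of control. Its spot on control replicate 1 lay on a patch of raised local background. Bcl2l1, which encodes BCL-XL, had 5 tested probes. The brightest read 5.34 and 5.23 in control and 5.22 and 5.34 in KO, a difference of -0.00036 (95% interval -0.30 to 0.30; limma adjusted p 0.999). These groups overlapped fully. The other 4 probes differed by -0.022 to 0.23. The probe at 0.23 had separate groups, and its spot on control replicate 1 lay on the same kind of patch.

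Bcl2, which CHOP is known to repress, had 2 tested probes. The brighter read 0.88 and 1.08 in control and 0.95 and 0.67 in KO, a difference of -0.17 (95% interval -0.59 to 0.24; limma adjusted p 0.630). The other read -0.70 and -0.53 in control and -0.30 and -0.95 in KO, so the KO arrays lay on either side of the controls. On both probes KO replicate 2 was the lowest array.

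Tnfrsf10b encodes the mouse receptor for TRAIL, known as a CHOP target in human cells. Its tested probe read -1.50 and -1.42 in control and -1.62 and -1.70 in KO. Both KO arrays lay below both controls, with a difference of -0.20 (95% interval -0.48 to 0.078; limma adjusted p 0.451), so the interval reaches at most 106% of control. Its ligand gene Tnfsf10 read -3.25 and -3.05 in control and -3.47 and -3.71 in KO, a difference of -0.44. A second Tnfrsf10b probe was well above background on control replicate 2 alone and was not tested.

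Ratios within an array remove the scaling. The log2 ratio of Bax to Bcl2, a common index of readiness to die, stood at 0.083 and -0.083 around the control mean and at 0.029 and 0.16 in KO. The groups overlapped. The ratio of Bbc3 to Mcl1 was -0.10 and 0.10 in control and 0.13 and 0.57 in KO, with KO higher on both arrays. Of the 4 ratios computed, the other two, Bax to Bcl2l1 and Bcl2l11 to Bcl2, overlapped. With 2 arrays against 2, an exact two-sided permutation test cannot give a p under 0.333.

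The ER response stood beside these values in the same animals. Of 16 ER chaperone and quality control genes, 15 had a difference above 0, where 63.9% of all genes lay below it, and 14 had separate groups with KO higher, against 13.8% of all genes. Their median was 0.46, beside 0.017 for the death genes. These genes were already known to be higher in these samples, so the count is not independent evidence. Hspa5, the chaperone BiP, read 4.69 and 4.78 in control and 5.73 and 5.38 in KO. Xbp1, the factor spliced by IRE1, read 4.82 and 4.78 in control and 5.58 and 5.41 in KO. Ddit3 (CHOP) read 0.12 and 0.059 in control and 0.89 and 0.25 in KO, a difference of 0.48 (SE 0.24; limma adjusted p 0.438). Most of the Ddit3 difference lay in KO replicate 1.

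The list of PERK, CHOP and JNK genes had a median of 0.16 over 15 genes. Groups were separate with KO higher on 8 of the 15 (13.8% of all genes) and with KO lower on 2 (32.1%). Of the 15 genes, 3 had an unadjusted limma p under 0.05 with KO higher (3.16% of all genes did) and 0 with KO lower (5.65% did). On the adjusted threshold, 0 passed. This list too was known to move in earlier results of these data, so its counts are not independent evidence. The 3 genes were Trib3 with a difference of 1.42 (SE 0.39), the glutathione-degrading enzyme gene Chac1 with 1.24 (SE 0.43) and the stress factor gene Atf3 with 1.07 (SE 0.28). Trib3 read -1.18 on control replicate 1 but -0.14 on control replicate 2, and Chac1 read 0.58 and 1.802. Without control replicate 1 these differences were 0.90 and 0.63, and without KO replicate 1 that of Atf3 was 0.69. Atf4 itself overlapped, at 6.13 and 6.65 in control and 6.90 and 6.62 in KO. The kinase genes of the JNK arm, Map3k5, Mapk8 and Mapk9, differed by 0.11, 0.16 and -0.011.

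The KO animals ranked differently for the ER response and for Bbc3, Pmaip1 and Bcl2l11. All 16 ER genes were highest on KO replicate 1, against 20.8% of all genes (50.5% of all genes were higher in that animal than in KO replicate 2), and their median against the control mean was 0.77 in that animal and 0.26 in KO replicate 2. Ddit3 stood 0.80 above the control mean in KO replicate 1 and 0.16 in KO replicate 2. In the same animals Bbc3 stood 0.21 and 0.56 above the control mean, Pmaip1 at -0.14 and 0.50, and Bcl2l11 at -0.12 and 0.34. The animal with the higher ER values had the lower values of these 3 genes, which were picked after their values were seen. Of all 10 members, 6 were higher in KO replicate 1 than in KO replicate 2, against 50.5% of all genes. Casp12 was alike in both, at 0.50 and 0.495. With 2 animals, no relation between these measures can be tested.

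**Figure D3:**
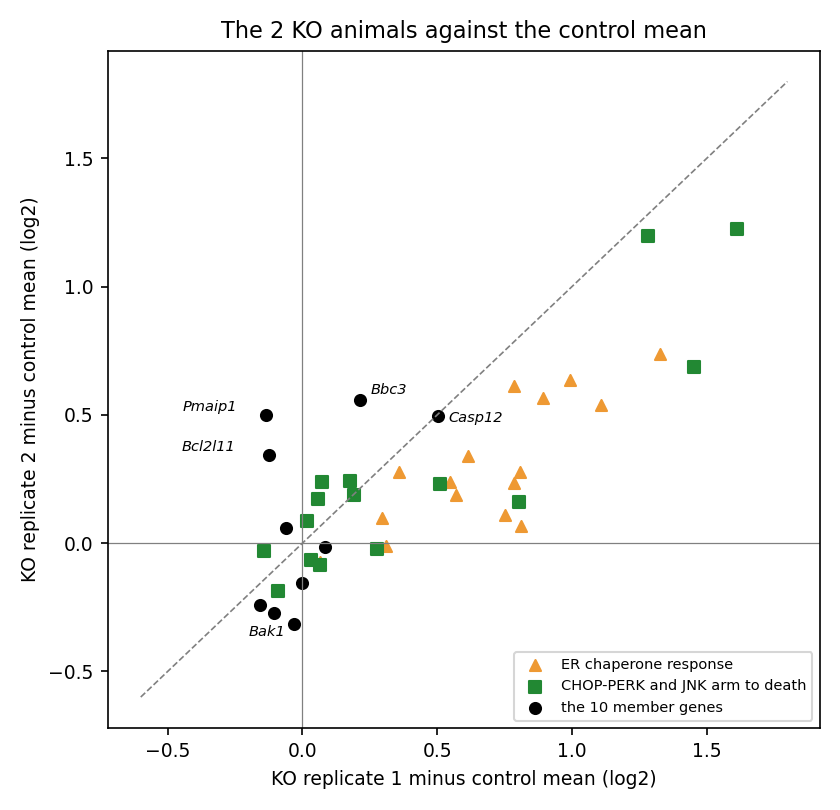
Log2 signal of KO replicate 1 (x axis) and KO replicate 2 (y axis), each minus the control mean, for the brightest probe of the 10 death genes (circles), 15 PERK, CHOP and JNK genes (squares) and 16 ER chaperone genes (triangles). The dashed line marks equal values, and the triangles all lie below it. Bbc3, Pmaip1, Bcl2l11 and Bcl2l1 lie above it and Casp12 on it, while Bax, Bak1, Bcl2, Mcl1 and Tnfrsf10b lie below it.

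Other genes of the death pathways were read from 10 lists, and 0 of their genes passed the adjusted threshold. Over all genes, 3.16% had an unadjusted p under 0.05 with KO higher and 5.65% with KO lower. Among the caspases and apoptosome genes 1 of 12 was such with KO higher and 0 with KO lower. It was Apaf1, the scaffold of the apoptosome, at -3.53 and -3.42 in control and -3.21 and -3.09 in KO (difference 0.32, SE 0.11). Endog, a mitochondrial nuclease gene, had a difference of -0.22 (SE 0.11). Casp9, the initiator that APAF1 activates, differed by -0.016, and the list's median was -0.016.

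Of the 8 other death-promoting BCL2 family genes tested, 4 had separate groups with KO lower (32.1% of all genes did) and 1 with KO higher (13.8% did). Their median was -0.098, beside -0.064 over all genes. The gene with KO higher was Hrk, known mainly from neurons, which read 0.62 and 0.69 in control and 0.82 and 1.22 in KO, a difference of 0.37 (SE 0.17; limma adjusted p 0.410). Bad differed by -0.17 and Bcl2l13 by -0.22, though a second Bcl2l13 probe gave 0.052. Of the survival genes, Bcl2l2 differed by 0.14 and Bcl2a1d, an immune cell gene, by -0.17. Probes of Bcl2a1 copies can share signal, so that value is uncertain.

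Among 15 genes of death receptors and their adaptors, Tnfrsf25 and Fasl had an unadjusted p under 0.05 with KO higher, and Ngfr and Tnfsf10 with KO lower. The median was -0.15. Fasl entered the test only through the KO arrays, so its place in that count was favoured by the filter. The Fas ligand gene Fasl was well above background on both KO arrays and on 0 control arrays. It read -6.24 and -5.97 in control and -5.02 and -4.78 in KO, at least 1.91-fold higher when each control array is set at its detection floor or at the probe's own signal, whichever was higher. The measured means were -6.11 ± 0.19 and -4.90 ± 0.17 (SD, n = 2 each; limma adjusted p 0.273). Tnfrsf25, a death receptor of T cells, read -2.79 and -2.70 in control and -2.17 and -2.10 in KO, a difference of 0.61 (SE 0.10; limma adjusted p 0.273). Ngfr, the p75 neurotrophin receptor gene, read 0.027 and 0.27 in control and -0.59 and -0.50 in KO, a difference of -0.70 (SE 0.13; limma adjusted p 0.273). The groups of Tnfrsf25 and Ngfr were separate. Fasl and Tnfrsf25 are known from T cells, whose marker Cd3e read -1.11 and -1.19 in control and -1.31 on both KO arrays. The Fas gene itself overlapped, with a difference of 0.12.

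**Figure D4:**
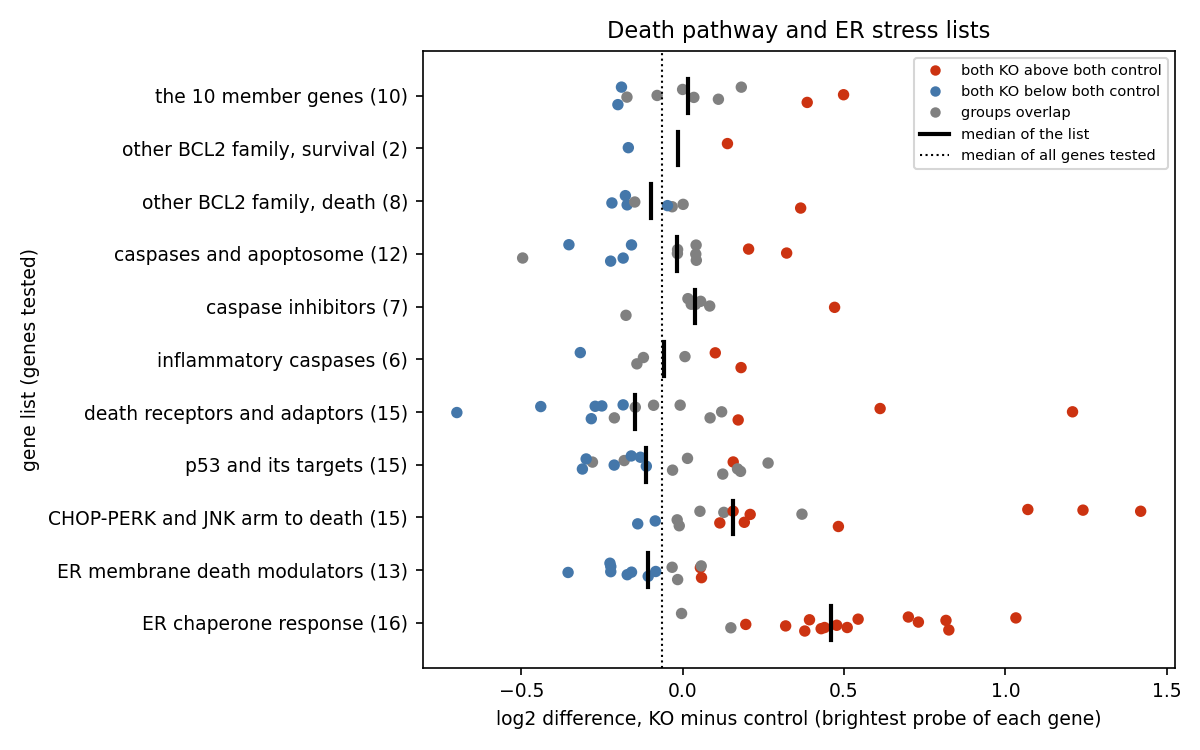
Log2 difference between KO and control (x axis) for the brightest probe of each gene in the 10 member genes and the 10 lists (y axis, with the number of genes tested). Colour tells whether the 2 KO arrays lay above, below or among the 2 control arrays, black bars are list medians and the dotted line is the median of all genes tested, -0.064. The bar of the ER chaperone list, at 0.46, lies to the right of all others.

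The p53 list gave no member with an unadjusted p under 0.05 in 15 genes, and its median was -0.11. Trp53 read -2.01 and -2.02 in control and -2.21 and -2.45 in KO (difference -0.31, SE 0.13). Cdkn1a, the cell cycle inhibitor gene that p53 induces, overlapped with a difference of 0.12, and Mdm2 differed by 0.16. Phlda3 and Pidd1 differed by -0.30 and -0.21, with a second Pidd1 probe at 0.19. Bbc3 was thus the member known as a p53 target with the largest difference, while Pmaip1 overlapped.

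The 7 caspase inhibitor genes had a median of 0.039, and Xiap and Birc2 differed by 0.026 and 0.056. The leading genes by p were Naip6 (0.47, SE 0.25, separate groups; 0.13 without KO replicate 2), Naip2 (-0.18, SE 0.21) and Naip5 (0.084, SE 0.12). These are near-identical copies whose probes can share signal. A second Naip5 probe was well above background on 0 arrays and was not tested. Of the 13 ER membrane genes that modulate death, 8 had separate groups with KO lower and 2 with KO higher, against 32.1% and 13.8% of all genes. Their median was -0.11, beside -0.064. Tmbim6, the gene of BAX inhibitor 1, read 3.70 and 3.65 in control and 3.45 on both KO arrays (difference -0.22, SE 0.098; limma adjusted p 0.399). Bnip1 and the calpain subunit gene Capns1 differed by -0.22 and -0.23. The groups of these 3 genes were separate.

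Casp12 belongs by sequence to the inflammatory caspases, and their list had a median of -0.057 over 6 genes. Casp1 read -1.15 and -1.32 in control and -1.09 and -1.02 in KO, a difference of 0.18 (SE 0.11). Casp4 overlapped with a difference of 0.0069 (SE 0.42), and its KO arrays lay far apart, at -4.07 and -2.87. Pycard, the adaptor gene of inflammasomes, differed by -0.32 (SE 0.11) and was the 1 gene of the list with an unadjusted p under 0.05. Il18 differed by 0.10 with separate groups.

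Markers of neurons were read beside the death genes, whose cell of origin whole tissue does not give. Purkinje cell markers had summed levels of 722 and 733 in control and 684 and 691 in KO, with a median difference of -0.086 over 8 genes. Of the 8, 2 had a difference above 0 and 6 below it. The brightest markers carry these sums. Car8, which adds little to them, read 3.99 and 3.13 in control and 1.02 and 3.78 in KO on its brightest probe, so its groups overlapped. Granule cell markers had summed levels of 481 and 494 in control and 471 and 472 in KO, with a median of -0.045. The median over all genes tested was -0.064, and 0 of the 16 neuronal markers had an unadjusted p under 0.05. Oligodendrocyte markers summed to 384 and 363 in control and 313 and 349 in KO, with a median of -0.35. An unadjusted limma p under 0.05 was found on 2 of 8, both lower in KO (5.65% of all genes were). Groups were separate with KO lower on 5 of 8 Purkinje, 3 of 8 granule and 6 of 8 oligodendrocyte markers, against 32.1% of all genes. With KO higher they were separate on 2, 0 and 0, against 13.8%.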

How the data were processed

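Total RNA of the cerebellum of 2 control and 2 KO mice, 150 ng each, was labelled with Cy3 and hybridised to single-colour Agilent arrays, per the labels' protocols. Per the file headers, version 12.1.1.1 of Feature Extraction wrote the scanner files; the submitters' processing notes name 10.7.1.1. Their processed signal is an intensity as this software made it, not normalized between arrays, and the median spot and local background intensity are deposited beside it. The authors' deposited series table holds log2 values centred per probe on an unstated value; its columns have medians of 0.0071, -0.19, -0.16 and -0.22, and their differences matched those of log2 processed signal within 0.01 after a shift per array.

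Outlier spots, 65 to 176 on an array, were dropped, log2 signals of a probe's spots were averaged, and the 75th percentile of the array was taken off. A probe was tested if either group had it well above background on both its arrays, which gave 37516. Of 35886 probes with a RefSeq accession, 32994 (91.9%) were named through the RefSeq gene table of GRCm38.p6; the array files state no build, and coordinates are printed for RefSeq promoter windows alone. The comparison of KO and control used limma 3.58.1 (R 4.3.3) without covariates, with Benjamini-Hochberg adjustment over all probes and 4.35 degrees of freedom. Each gene is read by its brightest probe in lists. Lists are described by counts and medians, with no test. Fasl and Ngp carry a bound from the lowest signal that was well above background on each array. The steps were tested on simulated data.

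The members and lists were chosen with earlier results of these data known. The text names Derl2, all members, the 3 genes of each list with the smallest p, those under 0.01 with separate groups, and Hspa5, Xbp1, Ddit3 and Atf4. Other genes were named after their values were seen, and some items that the rule names are not reported here. All arrays share 1 slide, so slide position and group cannot be told apart. Same-numbered arrays deviated together only weakly (r = 0.12 across 37516 probes, which are not independent), and the labels do not pair the animals. Alternatives were other scalings, the authors' values, normexp, filters on dim probes and spots, the variance model, a replicate block, arrays left out and the mean of a gene's probes.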

Additional observations from a re-analysis of the deposited data

How the results depend on the processing

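Having 2 arrays in each group limits all of these results. Of 282 values of the tested member probes under the alternatives, 258 kept their direction, 24 reversed in 9 probes, and 0 passed the adjusted threshold, with a smallest limma adjusted p of 0.183. The filters on dim probes, the intensity trend and the replicate block leave the difference of a tested probe as it was. Their values are among the 258 and could not reverse. Leaving an array out cannot reverse a probe whose groups are separate. Both Casp12 probes, Bbc3, Bak1, Tnfrsf10b, both Bax probes and the brighter Bcl2 probe kept their direction under every alternative that gave them a value. The causes of the moves were not tested.

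The count of all probes past the adjusted threshold, 0, was 1 under quantile normalization, spike-in scaling, patch spots left out and scaling to the median detected probe, 2 under normexp and 4 under an intensity trend. With an array left out it ran from 0 to 98, the 98 without control replicate 2. Under a replicate block the count was 0, and Casp12 had a limma adjusted p of 0.272. With each replicate number in both groups, a block cannot change a difference, so Casp12 kept 0.50 by design. The number of member genes with separate groups, 4, ran from 6 to 9 with an array left out, where fewer arrays have to separate.

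With all arrays kept, these values reversed. The second Bcl2 probe was at 0.0098 under quantile normalization and 0.060 under spike-in scaling. The brightest Bcl2l1 probe was at 0.067 under both, 0.0040 with the authors' values, 0.0030 with outlier spots kept and 0.0011 with patch spots left out, and a further Bcl2l1 probe was at 0.045 under spike-in scaling. Under normexp the dimmest tested Bcl2l11 probe was at -0.0097 and Mcl1 at -0.0059. With an array left out, reversals reached further: Pmaip1 ran from -0.14 to 0.50, the Bcl2l11 probes from -0.12 to 0.34 and -0.18 to 0.46, the second Bcl2 probe from -0.33 to 0.32 and Mcl1 from -0.013 to 0.082. Bcl2l1 probes ran from -0.061 to 0.060, -0.16 to 0.11, -0.082 to 0.21 and -0.016 to 0.20. With patch spots left out, Mcl1 and 2 Bcl2l1 probes had no value.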
